A study of Mus musculus with 10 samples.

Results

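Binding of XBP-1 in mouse liver was mapped by ChIP-seq with and without Ern1. The 4 libraries of the WT and Ern1-LKO groups were used, of 10 samples in the series, with 2 libraries per group. All were liver of C57BL/6J mice immunoprecipitated with an antibody labelled Xbp-1s. The Ern1-LKO mice carried a liver-specific knockout of Ern1, and the WT animals were the controls for that knockout. The driver of the deletion, the feeding state, the age and the time of day of these 4 samples are not given in the sources used here, and nothing says whether the 2 replicates of a group were separate animals, so p-values measure only the spread between these libraries. Peaks of the 4 single-library lists were merged into regions wherever they overlapped by 1 bp or more. This gave 43592 regions, of which 426 were called in all 4 libraries and 220 in both WT but neither Ern1-LKO library.

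Ern1 encodes IRE1α, a sensor in the membrane of the endoplasmic reticulum (ER). When unfolded protein builds up, its ribonuclease removes a short intron from Xbp1 mRNA, and the spliced message encodes XBP1s, a bZIP transcription factor. In secretory cells such as hepatocytes XBP1s is known for its targets among ER chaperones, ER-associated degradation (ERAD), the protein translocon, N-glycosylation and vesicle transport. It binds the ER stress response element (ERSE), together with NF-Y, and elements with an ACGT core such as the unfolded protein response element (UPRE). ATF6, another sensor of ER stress, also binds the ERSE.

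Promoters at regions called in all 4 libraries are shown first, because their motifs and their standing with and without Ern1 are what the results turn on. Each is an 80-base stretch before the gene's start, written 5′ to 3′ on the gene's strand, from RefSeq promoters of GRCm38.p6, the mm10 build of the peak lists. The 4 promoters of the chaperone and oxidoreductase genes below hold an ERSE, CCAAT and CCACG separated by 9 bases, and both of its ends are in capitals.
Hspa5: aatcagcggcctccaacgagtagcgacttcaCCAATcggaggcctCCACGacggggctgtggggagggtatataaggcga
Dnajc3: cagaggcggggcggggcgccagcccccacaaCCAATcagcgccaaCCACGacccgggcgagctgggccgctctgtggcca
Pdia6: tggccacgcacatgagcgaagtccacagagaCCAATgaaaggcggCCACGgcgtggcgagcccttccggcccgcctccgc
Hsp90b1: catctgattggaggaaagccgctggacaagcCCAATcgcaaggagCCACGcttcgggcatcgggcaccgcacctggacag
Hspa5, encoding BiP, the main ER chaperone, is at chr2:34771994-34772073 (plus strand). Dnajc3, a BiP co-chaperone, is at chr14:118937796-118937875 (plus strand). The disulfide isomerase gene Pdia6 is at chr12:17266460-17266539 (plus strand), and Hsp90b1, encoding the chaperone GRP94, at chr10:86705608-86705687 (minus strand). The last base of the ERSE lay 47, 87, 80 and 194 bases before the start in this order.

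The Txndc5 promoter (chr13:38528009-38528088, minus strand), of another thioredoxin-type oxidoreductase, holds the UPRE core TGACGTGG. Followed by C, that core overlaps ACGTGGC, the reverse complement of GCCACGT, the other motif searched, so the capitals cover both. Ero1b, Ssr3 and Lysmd3 stood lower among the shared regions in both Ern1-LKO libraries than in both WT libraries.
Txndc5: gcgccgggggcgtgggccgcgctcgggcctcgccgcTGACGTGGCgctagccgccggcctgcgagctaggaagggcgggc
Ero1b: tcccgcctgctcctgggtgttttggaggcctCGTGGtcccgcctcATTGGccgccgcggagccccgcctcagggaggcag
Ssr3: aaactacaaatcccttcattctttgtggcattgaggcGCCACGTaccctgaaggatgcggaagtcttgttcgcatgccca
Lysmd3: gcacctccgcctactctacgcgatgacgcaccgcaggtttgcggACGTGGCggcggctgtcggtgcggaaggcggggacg
Ero1b (chr13:12565651-12565730, plus strand), an oxidase that recharges disulfide isomerases, holds an ERSE on the other strand. Ssr3 (chr3:65392702-65392781, minus strand), a subunit of the translocon-associated protein complex, and Lysmd3 (chr13:81657726-81657805, plus strand) hold GCCACGT, read on the other strand in Lysmd3. The last pair shows a region that stood higher without Ern1, Rap1b, a small GTPase, with a cAMP response element (CRE, TGACGTCA), and one that was called in both WT libraries and Ern1-LKO replicate 1 alone, Pan2, a deadenylase subunit, with an ERSE on the other strand.
Rap1b: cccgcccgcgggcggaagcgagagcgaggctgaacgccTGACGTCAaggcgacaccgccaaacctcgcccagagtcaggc
Pan2: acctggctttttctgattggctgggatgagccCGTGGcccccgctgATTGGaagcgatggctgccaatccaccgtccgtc
Rap1b is at chr10:117845975-117846054 (minus strand) and Pan2 at chr10:128303255-128303334 (plus strand). The last base of the Rap1b CRE lay 35 bases before the start. Its summits lay after the start, by 273 and 77 bases in WT and by 299 and 606 in Ern1-LKO. A match is a description of these letters, and binding to it was not measured.

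The 4 lists differed in length, and not by genotype. WT replicates 1 and 2 held 6258 and 30327 peaks, and Ern1-LKO replicates 1 and 2 held 698 and 30796. The long lists were those of replicate 2 in both groups. Tags kept after removal of duplicates numbered 14072378 and 9176542 in WT against 11995890 and 4340956 in Ern1-LKO, and the kept share was 91.3%, 67.6%, 82.6% and 53.3%. The highest pileup, the number of extended fragments stacked on 1 position, was 289, 354, 215 and 349 in this order. The ceilings that 1 tag per position allows were 348, 364, 344 and 366. The values 354, 215 and 349 belonged to 1 region outside protein-coding genes, described below. Over the regions called in all 4 libraries the highest pileups were 289, 349, 169 and 256. Pileup depends on depth and is limited by this ceiling, so regions were compared by their rank of pileup within a library. The peak lists hold no expression values: neither the deletion of Ern1 nor the tissue could be checked from markers. None of the 5 marker lists of non-parenchymal liver cells had a region in all 4 libraries or in both WT and Ern1-LKO replicate 2. A change in the number of bound cells and a change in binding per cell cannot be told apart in bulk chromatin.

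Sites of the short Ern1-LKO list were nearly all found in WT liver. Of the 665 regions of Ern1-LKO replicate 1, 662 (99.5%) were called in at least 1 WT library, 652 in WT replicate 2 and 631 in the other Ern1-LKO library. Of the 29937 regions of Ern1-LKO replicate 2, 19716 (65.9%) were called in at least 1 WT library. The pattern of both Ern1-LKO libraries without either WT library held 0 regions (0.0% of all), and the reverse pattern held 220 (0.505%). Both counts depend on list length, since 631 regions were in both Ern1-LKO libraries and 2422 in both WT libraries. With lists of equal length, described below, the 2 patterns held 105 and 165 regions. Of the 2422 regions called in both WT libraries, 2182 (90.1%) were also called in Ern1-LKO replicate 2, and 426 (17.6%) were called in both Ern1-LKO libraries.

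**Figure D1:**
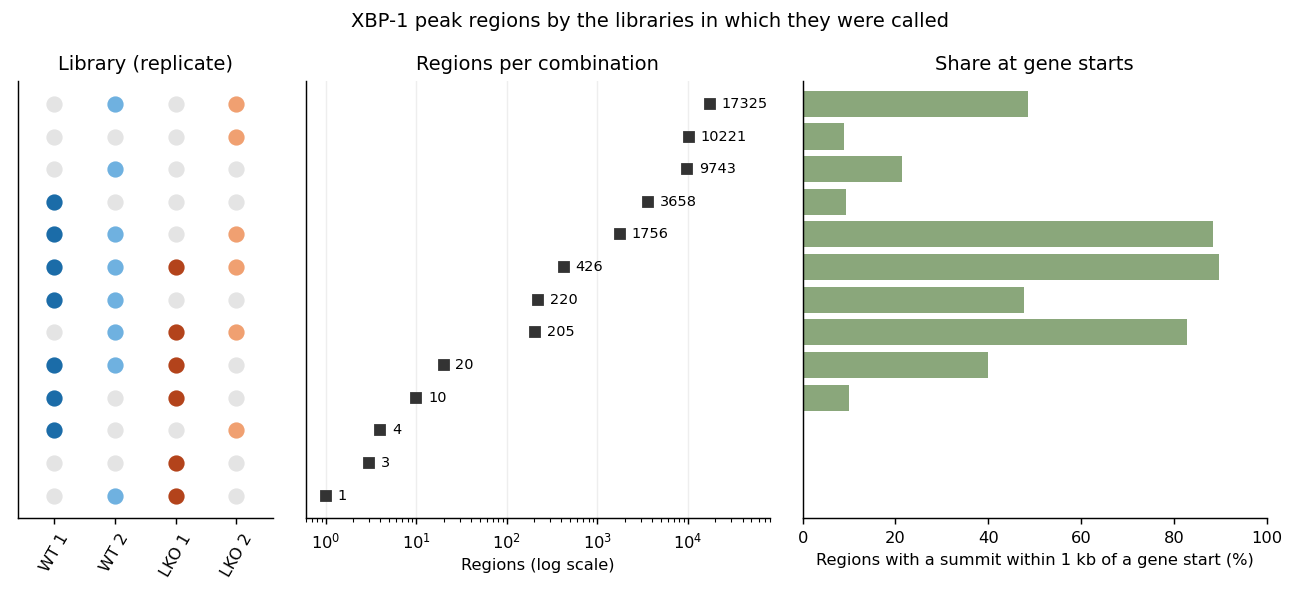
Regions by the libraries in which they were called (filled circles, left), with their number on a log scale (middle) and the share with a summit within 1 kb of a gene start (right). The largest class, 17325 regions, belongs to the 2 long lists, WT replicate 2 and Ern1-LKO replicate 2, and the 426 regions of all 4 libraries have the highest share at gene starts, 89.7%.

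The share of regions at gene starts was highest for the regions of all 4 libraries. Only protein-coding genes were used, so a region said here to lie between genes may hold a gene of another kind. A region was assigned to a gene when a summit lay within 1 kb of its start. This held for 382 of the 426 regions of all 4 libraries (89.7%), for 88.4% of the 1756 regions of both WT and Ern1-LKO replicate 2, and for 82.9% of the 205 regions of WT replicate 2 and both Ern1-LKO libraries. The share was 48.5% for the 17325 regions of WT replicate 2 and Ern1-LKO replicate 2, 47.7% for the 220 regions of both WT libraries alone, 40.0% for the 20 of both WT and Ern1-LKO replicate 1, and 32.0% for all regions. Of the 10 regions of replicate 1 of both groups, 1 was at a gene start. Regions called in 1 library alone were at a gene start in 9.3% (WT replicate 1), 21.5% (WT replicate 2) and 8.9% (Ern1-LKO replicate 2) of cases. Of the 426, 313 were assigned by a start in the RefSeq promoter table. In these 313, the nearest summit of any library lay a median 95 bp from the start, and within 250 bp in 85.3%.

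Among sites of WT liver, the strongest were the most often found in the short Ern1-LKO list. The 2422 regions of both WT libraries were divided into 5 groups of nearly equal size by their mean percentile of pileup in the WT lists. From the strongest to the weakest, 38.4%, 14.7%, 10.7%, 14.7% and 13.6% were called in Ern1-LKO replicate 1. The corresponding shares in Ern1-LKO replicate 2 were 93.8%, 91.1%, 91.3%, 89.3% and 84.9%. The share found in neither library was 4.3% in the strongest group and 14.8% in the weakest. This is a description of 2 lists of unequal length and has no test.

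The shared gene sites with the highest mean rank over the 4 libraries included those of several secretory genes, of Brd2, which encodes a bromodomain (BET) protein, and of RNA-binding proteins. Brd2 had pileups of 289 and 339 in WT against 169 and 256 in Ern1-LKO, and ranked 1, 2, 1 and 1 among the 426 regions. Tram1, a translocon-associated membrane protein, had 270 and 349 in WT against 117 and 201 in Ern1-LKO (ranks 2, 1, 4 and 4). Pdia3, a disulfide isomerase of glycoprotein folding, had 253 and 326 in WT against 98 and 219 in Ern1-LKO (ranks 3, 6.5, 10 and 2). Their high standing in both groups follows from this choice and is a description. The other 7 of the 10 regions with the highest mean rank were those of Txndc5, Hsp90b1, Dnajc3, Snd1 (a tudor-domain RNA-binding protein), Rpn2 (an oligosaccharyltransferase subunit), Hdlbp (vigilin, an RNA-binding protein) and Surf4 (a cargo receptor). Their pileups were 218 to 252 in WT replicate 1, 289 to 330 in WT replicate 2, 78 to 127 in Ern1-LKO replicate 1 and 145 to 217 in Ern1-LKO replicate 2.

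The spread of pileup between strong and weak shared sites was wider in both WT libraries than in both Ern1-LKO libraries. Over the same 426 regions the median pileup was 35.5 and 71 in WT against 24 and 49 in Ern1-LKO, and the upper quartile was 118 and 167.5 against 35 and 67. The upper quartile over the median was therefore 3.32 and 2.36 in WT (2.84 ± 0.679, SD, n = 2) and 1.46 and 1.37 in Ern1-LKO (1.42 ± 0.0636, SD, n = 2). The groups did not overlap, and the exact two-sided permutation p was 0.33, the smallest that 2 libraries against 2 can give. On fold enrichment over input the same ratio was 2.34 and 1.64 in WT against 1.22 and 1.25 in Ern1-LKO. This measure was chosen after its values were seen. Depth and the shares of kept tags differed between the libraries, and their part in the ratio was not tested.

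**Figure D2:**
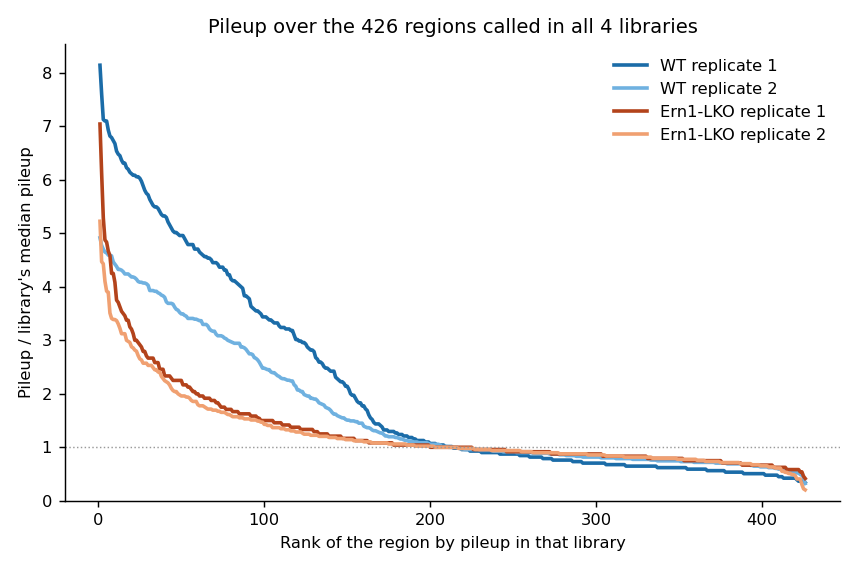
Pileup of the 426 shared regions divided by the library's median over them (vertical axis, no unit), against the rank of the region in that library (horizontal axis), 1 line per library. The WT lines stay above the Ern1-LKO lines over ranks of about 10 to 170, and all 4 meet near the median.

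The 698 highest peaks of each library, the length of the shortest list, did not separate the groups by position or width. The share at a gene start was 69.8% and 84.5% in WT against 82.8% and 81.4% in Ern1-LKO (difference 4.95 percentage points, exact permutation p = 1.0). Their median width was 442 and 748 bp in WT against 232 and 745 bp in Ern1-LKO (exact permutation p = 0.67). In both measures the Ern1-LKO values overlapped those of WT.

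The order of the 426 shared regions was described by pairwise Spearman correlations of pileup, which are across regions and share the input library. The value was 0.86 between the WT libraries and 0.64 between the Ern1-LKO libraries. Between groups it was 0.75 and 0.55 for WT replicate 1 against Ern1-LKO replicates 1 and 2, and 0.76 and 0.69 for WT replicate 2. The picture depended on the measure. On fold enrichment the correlation was 0.79 between the WT libraries, 0.52 between the Ern1-LKO libraries and 0.34 to 0.53 between groups. Summits of a region lay a median 29 bp apart between the WT libraries, 45.5 bp between the Ern1-LKO libraries and 33 to 57 bp between groups.

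In 105 of the 426 shared regions (24.6%) both Ern1-LKO ranks were below both WT ranks, in 114 (26.8%) both were above, and in 207 the groups overlapped. With limma on normal scores of the ranks, no region passed an adjusted p of 0.05 (0.0% of 426). The smallest adjusted p was 0.21, and 25 regions lower and 33 higher had an unadjusted p under 0.05. No single site thus passed the test, with 2 libraries per group. The 105 regions that stood lower had median pileups of 87 and 136 in WT against 23 and 47 in Ern1-LKO. The 114 that stood higher had medians of 27.5 and 64 in WT against 26 and 55 in Ern1-LKO, and the 207 others 32 and 65 in WT against 23 and 46 in Ern1-LKO. These sets were chosen by ranks of the same pileups. Their differences in pileup follow in part from that choice and are a description.

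The 10 largest drops in standing included Fam184a and several genes of the secretory pathway. Fam184a had pileups of 52 and 75 in WT against 14 and 26 in Ern1-LKO, and its ranks were 166 and 202.5 against 418.5 and 414.5 (limma adjusted p = 0.21). Ero1b had 114 and 141 in WT against 21 and 37 in Ern1-LKO. Tmed9, a p24 cargo receptor, had 194 and 219 in WT against 34 and 33 in Ern1-LKO, with ranks of 36 and 73 against 113 and 396. In each of these both WT ranks stood above both Ern1-LKO ranks. Pdia5, a disulfide isomerase, had 120 and 176 against 25 and 34, and Ssr3 had 170 and 204 against 32 and 35. Golga4, a golgin tether, had 92 and 160 against 23 and 36. Fam107b, Lysmd3, Zfp330 and Ipo5, an importin, completed the 10 largest drops, with WT pileups of 36 to 121 and 83 to 184 and Ern1-LKO pileups of 20 to 23 and 23 to 45. Across the 10, the mean rank moved down by 157.25 to 232.25 places. Low pileups make such ranks coarse. In Ern1-LKO replicate 1 a pileup of 21 (Lysmd3) was rank 288 and one of 23 (Zfp330) was rank 235.5. Several of the sizes of these drops rest on Ern1-LKO replicate 2. Without it the drop was 58.5 places for Tmed9, 54.5 for Ssr3, 87 for Pdia5, 74.5 for Zfp330 and 111.5 for Golga4, and without Ern1-LKO replicate 1 it was 341.5, 309.5, 288.5, 259 and 246 in this order. Ranked by fold enrichment, the drop was 140.5 places for Fam184a, 50.75 for Ipo5 and 301 for Tmed9.

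The 10 largest gains in standing were at sites of low WT pileup. A gain of this size can be had only by a site that stands low in WT, where few secretory genes stood. Tmem267 had 35 and 49 in WT against 33 and 76 in Ern1-LKO, with ranks of 216 and 384 against 118.5 and 86. Usf2 and Usf3 had 24 and 50, and 20 and 56, in WT. Their Ern1-LKO pileups were 26 and 50, and 25 and 56. The former encodes a bHLH factor known to bind E-boxes. Usf2 and Usf3 thus stood higher in both Ern1-LKO libraries at nearly equal pileups, in libraries of unequal depth. Stat5b, a transcription factor of growth hormone signalling, had 22 and 49 in WT against 24 and 51 in Ern1-LKO. Errfi1, a feedback inhibitor of EGF receptor signalling, had 22 and 74 in WT against 28 and 75 in Ern1-LKO. Prdm10, Rap1b, Ubtd2, Zfp865 and Pcbp2 (a poly(C)-binding protein) made up the rest of the 10, with ranks that did not overlap between the groups. The mean rank change over the 10 was -155.75 to -197.75 places, negative where standing was higher. At such pileups a few fragments move a site by many places. In Ern1-LKO replicate 1 a pileup of 24 (Stat5b) was rank 212.5 and one of 26 (Usf2) was rank 170. It was -53.5 for Tmem267 ranked by fold enrichment and -113.75 without WT replicate 2, and without WT replicate 1 it was -121.75 for Prdm10 and -86 for Errfi1.

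**Figure D3:**
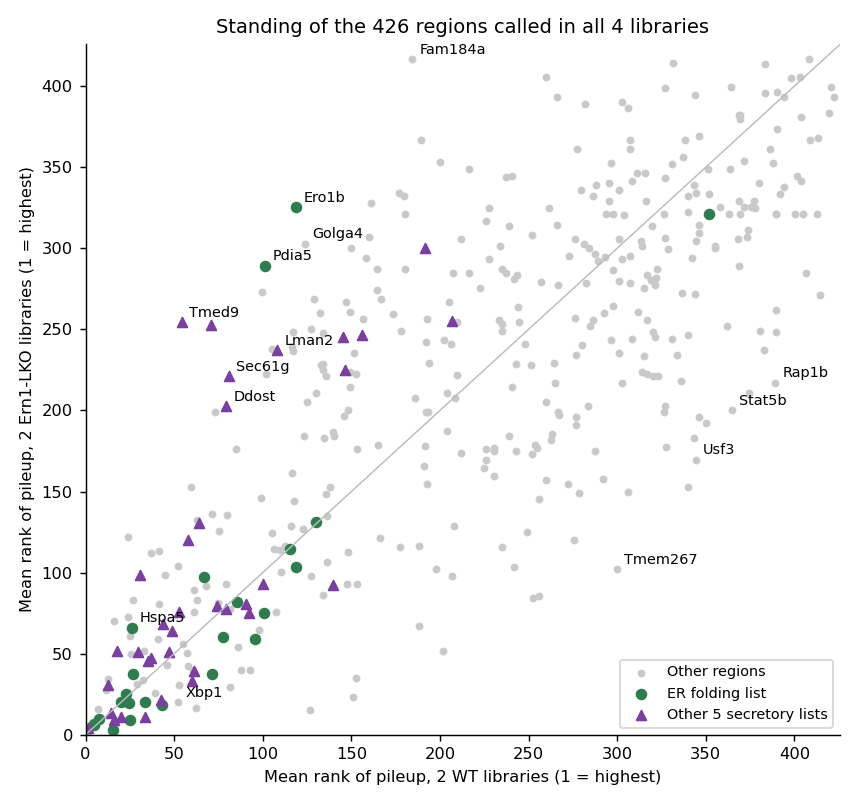
Mean rank of pileup in the 2 WT libraries (horizontal axis) against that in the 2 Ern1-LKO libraries (vertical axis) for the 426 shared regions, where 1 is the highest pileup and the line marks equal standing. Green circles are ER folding genes and purple triangles the other 5 secretory lists; both gather at high ranks in both groups, and Tmed9, Ero1b, Pdia5 and Ddost lie well above the line.

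The 6 lists of secretory genes covered the roles of XBP1s targets. Of 176 listed genes, 174 were matched, and 61 had a region in all 4 libraries, 65 in both WT and Ern1-LKO replicate 2, 4 in both WT and Ern1-LKO replicate 1, and 10 in both WT alone. Of the 327 matched genes of all other lists, 12 had a region in all 4 libraries and 45 in both WT and Ern1-LKO replicate 2. The 61 genes had 60 regions, since Creld2 and Alg12 share one. Of these 60, 18 (30.0%) stood below both WT ranks in both Ern1-LKO libraries, 11 (18.3%) stood above, and 31 overlapped, beside 24.6% below and 26.8% above over all 426. Their median of the mean rank among 426 was 59.125 in WT and 67.25 in Ern1-LKO, beside 226.75 and 229 for all shared regions. Regions this high in WT have less room to rise than to fall, and the counts were not compared at matched WT rank. The lists were chosen with results of these data known.

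A larger set was the 2182 regions of both WT libraries and Ern1-LKO replicate 2, whose ranks leave out the short list. In this set 817 regions (37.4%) stood below both WT ranks in Ern1-LKO replicate 2 and 920 (42.2%) above. Limma called none lower (0.0%) and none higher (0.0%), with 237 lower and 172 higher at an unadjusted p under 0.05, and the single Ern1-LKO library was assumed to vary like the WT libraries. Of the 125 regions of the 6 secretory lists, 82 (65.6%) stood below both WT ranks and 27 (21.6%) above. Their median rank of 2182 was 142.5 in WT and 489 in Ern1-LKO replicate 2. The 57 regions of all other lists had 20 (35.1%) below and 16 (28.1%) above, and medians of 1132.25 and 1127.5. The secretory regions thus stood nearer the top in WT, with less room to rise and more to fall. Their counts, here and by list below, are a description, and no comparison was made at matched WT rank. Ranked by fold enrichment, the secretory counts were 79 and 25.

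Nearly every ER folding gene had a site, and the group stood at much the same median rank with and without Ern1. Of 32 genes, 24 had a region in all 4 libraries and 7 more in both WT and Ern1-LKO replicate 2. Among the 24, 3 stood lower in both Ern1-LKO libraries, 7 higher and 14 overlapped, beside 24.6% lower and 26.8% higher over all 426. The median rank of 426 was 55.0 in WT and 48.375 in Ern1-LKO. Hspa5 stood differently in the 2 Ern1-LKO libraries, with 246 and 254 in WT, 147 in Ern1-LKO replicate 1 and 60 in replicate 2, ranks 6, 47, 2 and 130. Dnajc3 had 224 and 304 in WT against 127 and 217 in Ern1-LKO, and both Ern1-LKO ranks were 3, above its WT ranks of 15.5 and 15. Pdia6 had 216 and 288 against 90 and 172, also higher in standing. Dnajb9, a BiP co-chaperone that acts on IRE1α, went the other way, with 163 and 221 against 39 and 67. Hsp90b1 (239 and 326 against 116 and 153) and Hyou1, a nucleotide exchange factor of BiP (226 and 290 against 64 and 166), had overlapping ranks. Pdia4 (150 and 234 against 56 and 122), the BiP cofactor Sdf2l1 (107 and 154 against 35 and 72), and the prolyl isomerase gene Fkbp2 (183 and 262 against 85 and 137) stood higher in both Ern1-LKO libraries. These standings are by pileup. Ranked by fold enrichment, 5 of the 60 shared secretory regions stood higher and 19 lower, against 11 and 18 by pileup. Of 31 regions in the larger set, 14 stood below and 13 above both WT ranks, beside 37.4% below and 42.2% above over all 2182.

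ERAD genes retrieve and degrade misfolded ER proteins. Of 24 listed, 23 were matched, and 6 had a shared region, of which 2 stood lower, 1 higher and 3 overlapped. The shares over all 426 were 24.6% lower and 26.8% higher. Edem1, a lectin-like factor that extracts misfolded glycoproteins, had 167 and 234 in WT against 54 and 124 in Ern1-LKO, with ranks of 59 and 64 against 47.5 and 31. Herpud1, a scaffold of the degradation complex, had 162 and 209 against 54 and 66, and Syvn1, its ubiquitin ligase HRD1, had 91 and 85 against 39 and 31. These latter ranks overlapped. Ube2g2, a ubiquitin-conjugating enzyme, stood lower with 229 and 307 against 70 and 118. Sel1l, the partner of HRD1, was called in WT at 98 and 62 and in Ern1-LKO replicate 2 at 28 but not in replicate 1. Os9, a lectin of the same complex, was called in WT only, at 74 and 34. In the larger set 12 of 17 ERAD regions stood below both WT ranks and 3 above (37.4% and 42.2% over all 2182), and the median rank was 405.75 in WT and 1563.0 in Ern1-LKO replicate 2.

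Translocon and targeting genes bring new proteins into the ER. Of 24 genes, 10 had a region in all 4 libraries, with 5 lower, 1 higher and 4 overlapping. The shares over all 426 shared regions were 24.6% lower and 26.8% higher. The median rank of the 10 was 45.75 in WT and 81.375 in Ern1-LKO. Sec61a1, the channel subunit, had 179 and 301 in WT against 35 and 75 in Ern1-LKO, with ranks of 45 and 17 against 108 and 89.5. Sec61g had 150 and 209 against 31 and 41. Sec63, which couples the channel to BiP, was the member that stood higher, with 172 and 279 against 72 and 141. Genes of the signal recognition particle and its receptor were found in both WT libraries, and those other than Srp72 were not called in Ern1-LKO replicate 1. Srpr, the receptor's large subunit, had 126 and 243 in WT and 36 in Ern1-LKO replicate 2, and Srp68 had 106 and 228 in WT and 43 there. Ssr2, of the same complex as Ssr3, had 109 and 215 in WT and 26 there. In the larger set 18 of 21 regions stood below both WT ranks and 2 above, beside 37.4% below and 42.2% above over all 2182.

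N-glycosylation genes build and transfer the glycan of secretory proteins. Of 32 genes, 5 had a shared region, 11 were in both WT and Ern1-LKO replicate 2, and 2 (Ostc and Alg2) in both WT and Ern1-LKO replicate 1. Rpn2 had 241 and 291 in WT against 102 and 166 in Ern1-LKO, and Ddost, another subunit of the oligosaccharyltransferase, had 147 and 212 against 23 and 53. Ranks overlapped for Rpn2 and stood lower for Ddost. Krtcap2, a further subunit, was called at 182 and 233 in WT and 56 in Ern1-LKO replicate 2, and not in replicate 1. Gfpt1, the first enzyme of the hexosamine pathway, had 121 and 199 in WT and 68 there. Of 16 regions in the larger set, 10 stood below both WT ranks and 2 above, beside 37.4% below and 42.2% above over all 2182.

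Genes of COPII vesicles, which leave the ER, had a shared region in 7 of 26 cases (2 lower, 1 higher, 4 overlapping). The shares over all 426 were 24.6% lower and 26.8% higher. Sec24d, a cargo adaptor, had 215 and 307 in WT against 48 and 103 in Ern1-LKO, and Sar1a, the GTPase that starts the coat, had 78 and 115 against 22 and 47. Both stood lower. Mia3, the exit receptor for collagen also called TANGO1, stood higher with 216 and 299 against 110 and 153. Lman2, a lectin cargo receptor, had 142 and 135 in WT against 47 and 27 in Ern1-LKO, with overlapping ranks. In the larger set 14 of 19 regions stood below both WT ranks and 4 above, beside 37.4% below and 42.2% above over all 2182.

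Genes of COPI vesicles, p24 receptors and fusion factors had a shared region in 9 of 37 matched cases. Of the 9, 5 stood lower, 1 higher and 3 overlapped, beside 24.6% lower and 26.8% higher over all 426. Arcn1, the delta subunit of coatomer, had 141 and 264 in WT against 31 and 60 in Ern1-LKO. Copa had 86 and 171 in WT and 19 in Ern1-LKO replicate 2, and Copb2 had 47 and 95 in WT and 19 there. Cope and Copg1, of the same coat, were called in WT only, at 120 and 103 and at 102 and 112. Copb1, another coatomer gene, had 160 and 198 in WT against 39 and 84 in Ern1-LKO with overlapping ranks. Of the rest, Copz1 had 75 and 101 in WT and 52 in Ern1-LKO replicate 2, Copz2 had 28 and 65 in WT and 25 there, and Copg2 was called only in the long lists, at 38 and 19. In the larger set 14 of 22 regions stood below both WT ranks and 3 above, beside 37.4% below and 42.2% above over all 2182.

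**Figure D4:**
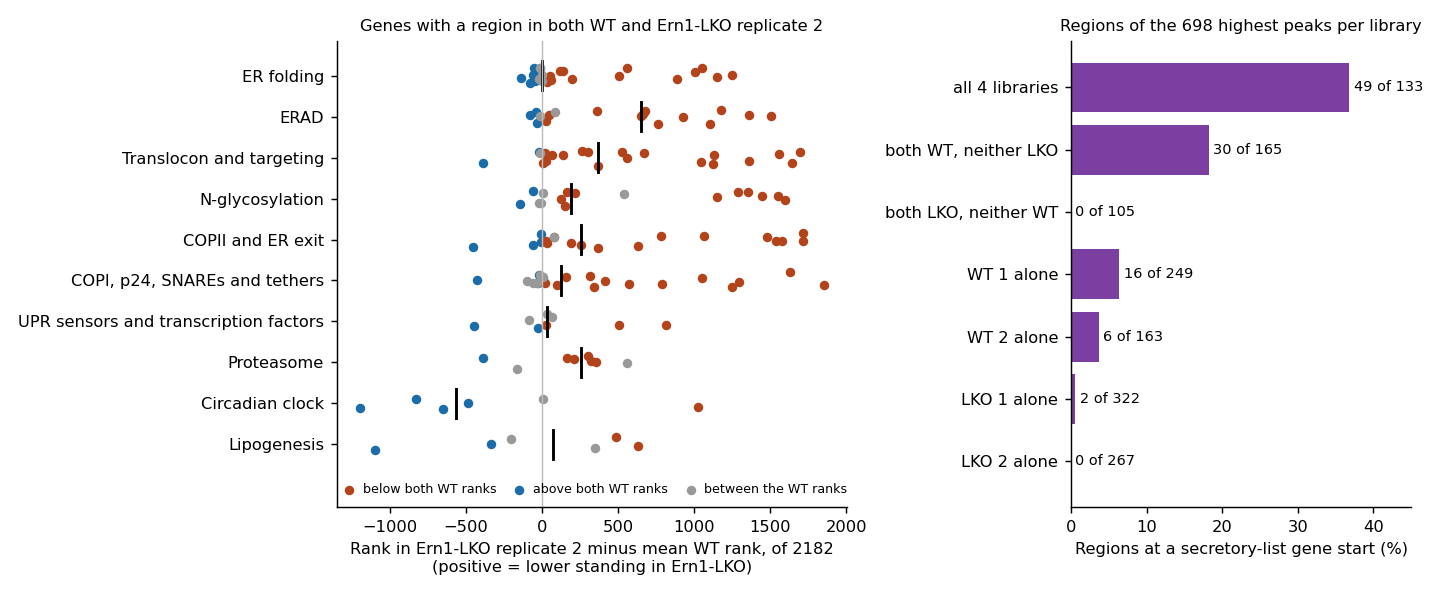
Left, rank of a gene's region in Ern1-LKO replicate 2 minus its mean WT rank among 2182 regions, for 10 gene lists, with 1 point per gene and a bar at the list's median; points to the right stood lower without Ern1. Right, share of regions at a gene of the 6 secretory lists when only the 698 highest peaks of each library are used. It was 49 of 133 in all 4 libraries, 30 of 165 in both WT alone and 0 of 105 in both Ern1-LKO alone. The 105 leave out the highest WT peaks, where the listed genes stood, so a share near 0 follows in part from that choice.

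Sensors and transcription factors of the unfolded protein response were mostly called in the long lists. Of 22 genes, 3 (Xbp1, Ddit3 and Eif2ak3) had a region in all 4 libraries, 5 in both WT and Ern1-LKO replicate 2 and 12 in WT replicate 2 and Ern1-LKO replicate 2 alone. The Xbp1 start itself had 162 and 270 in WT against 84 and 130 in Ern1-LKO, with ranks of 64.5 and 40 against 15 and 25, so it stood higher in both Ern1-LKO libraries (limma adjusted p = 0.459). Ddit3, encoding CHOP, had 86 and 135 against 30 and 54 with overlapping ranks. Atf4, the factor of the integrated stress response, had 47 and 71 in WT and 44 in Ern1-LKO replicate 2. Atf6 was called in WT only, at 105 and 28. Ern1 had a region at its start in WT replicate 2 (69) and Ern1-LKO replicate 2 (40), and Ppp1r15a, the phosphatase subunit GADD34, in the same libraries (43 and 22). A peak at the Ern1 start says nothing about the deleted part of the gene, which is not given in the sources used here.

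Regions of both WT libraries that no Ern1-LKO list held had median pileups of 37 and 27.5 in WT replicates 1 and 2, beside 35.5 and 71 for the shared regions. They were thus lower than the shared regions in WT replicate 2 and not in replicate 1. The highest at a gene start were Chid1 (106 and 171), Cope, Copg1, Itfg2 (100 and 122) and Sec23b, a COPII coat subunit (77 and 140). They were followed by Gmppa, of GDP-mannose synthesis (117 and 62), Tmem125 (66 and 92), and Zfpl1 of the Golgi (71 and 73). Stx18 (60 and 93) and Bet1 (104 and 56), both SNAREs of ER to Golgi traffic, completed the 10. Gmppb, the partner of Gmppa, was at 63 and 45, and Sec13, of the COPII coat, at 41 and 37. Secretory list genes accounted for 10 of these regions' genes, 5 of them of COPI vesicles and fusion factors.

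Of the regions of both WT and Ern1-LKO replicate 2 that the short list lacked, the 10 highest at a gene start included genes of secretion. Scfd1, an SM protein of ER to Golgi fusion, had 188 and 213 in WT and 60 in Ern1-LKO replicate 2. Derl1, a channel factor of ERAD, had 131 and 243 in WT and 86 there. Rpn1 had 151 and 204 in WT and 55 there, and Nans, of sialic acid synthesis, 115 and 211 in WT and 98 there. The others of these 10 were Dhx40, Krtcap2, Tm9sf1, Nktr, Gfpt1 and a start shared by Hdlbp and Septin2. A region between genes, chr6:86471842-86472787, was as high, at 130 and 196 in WT and 82 in Ern1-LKO replicate 2.

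With each library cut to its 698 highest peaks, so that all lists were of 1 length, 1672 regions remained. Of these 133 were in all 4 libraries, 165 in both WT and neither Ern1-LKO (9.87%), and 105 in both Ern1-LKO and neither WT (6.28%). Secretory list genes stood at 49 of the 133 (36.8%), 30 of the 165 (18.2%) and 0 of the 105 (0.0%). They stood at 129 of all 1672 (7.7%). In WT replicate 1 alone and WT replicate 2 alone the shares were 6.4% and 3.7%, and in Ern1-LKO 0.6% and 0.0%. The 105 leave out the highest peaks of both WT libraries, where the listed genes stood. A share near 0 follows in part from that choice, and the lists were chosen with results of these data known. The highest of the 165 included Arf4, a small GTPase of Golgi traffic (135 and 256 in WT), Srpr, Harbi1 (158 and 213) and Cflar, a caspase regulator (123 and 178). The highest of the 105 was at no start of a protein-coding gene (chr14:115040431-115042364, 36 and 83 in Ern1-LKO). Among the next highest, named after their values were seen, were Ubtd2 (38 and 81 in Ern1-LKO), Tmem267 (33 and 76), Mbd3, a subunit of the NuRD complex (29 and 75), Nfib, a nuclear factor I protein (26 and 63), and Pcbp2. The regions of the 105 lay at a gene start in 80.0% of cases and those of the 165 in 90.9%. Limma on the 133 called 3 regions at an adjusted p of 0.05. Tmem39a (200 and 301 in WT, 35 and 59 in Ern1-LKO, adjusted p = 0.033) and Tmem214 (134 and 242 against 25 and 49, adjusted p = 0.0394) fell in rank by limma. Kmt2a, a histone methyltransferase gene (74 and 174 against 81 and 158, adjusted p = 0.00249), rose. Among the 426 regions the same test called none of these, and the full ranks of Kmt2a were 151 and 102.5 in WT against 17.5 and 13.0 in Ern1-LKO.

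A few sites of both WT libraries were in the short Ern1-LKO list and not in the long one. There were 20 such regions, 8 at a gene start, named here after their values were seen. A further 10 were called in WT replicate 1 and the short list, among them Creb3l2, an ER-anchored bZIP factor (93 and 45), and 1 in WT replicate 2 and the short list. Pan2 had 221 and 117 in WT and 103 in Ern1-LKO replicate 1. Ostc, an oligosaccharyltransferase subunit, had 204 and 55 in WT and 62 there, and Ufc1, the conjugating enzyme of the UFM1 pathway, had 196 and 101 in WT and 37 there. Replicate 2 of Ern1-LKO, with 30796 peaks, had none at these starts. The other starts were those of Pex11g, Stx5a, Rpl10, Nucb1 and the pair Alg2 and Sec61b, with 82 to 136 in WT replicate 1, 27 to 153 in WT replicate 2 and 21 to 62 in Ern1-LKO replicate 1.

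Regions of WT replicate 2 and both Ern1-LKO libraries, absent from the list of WT replicate 1, numbered 205. Zfp316 had 98 in WT replicate 2 and 38 and 89 in Ern1-LKO, Zfp335 had 86 and then 30 and 69, and Msl1, of a histone acetyltransferase complex, 74 and then 30 and 67. The 3 highest regions of this class lay outside protein-coding genes, and genes of other kinds were not looked up. The highest, chr17:39843004-39846929, had pileups of 354 in WT replicate 2 and 215 and 349 in Ern1-LKO, near the ceiling in both replicate 2 libraries, at fold enrichments of 3.5 in WT replicate 2 and 2.1 and 7.2 in Ern1-LKO.

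Few shared sites were found at metabolic, plasma protein and proteasome genes. Only 382 shared regions lay at a gene start, beside 21900 protein-coding genes. A count of 0 in a list of this size is thus no result about the list. Lipogenesis (24 genes), cholesterol synthesis (21), fatty acid oxidation and ketogenesis (20), gluconeogenesis (18), plasma proteins (23), the respiratory chain (24) and the proteasome (24) had 0 regions in all 4 libraries. In both WT and Ern1-LKO replicate 2 they had 6, 4, 4, 0, 0, 3 and 8 genes, beside 1552 regions of this class at a gene start. Phospholipid synthesis (17 genes) had 1 gene in all 4 libraries and 4 in this class. Fasn, the fatty acid synthase, had 32 and 48 in WT and 29 in Ern1-LKO replicate 2, and Srebf1, a master factor of lipogenesis, had 23 and 54 in WT and 15 there. In WT both were at the level of low secretory sites such as Copz2, and not of the shared secretory sites named above. The proteasome genes, although low, stood below both WT ranks in 5 of 8 regions and above in 1. Circadian clock genes had 4 of 6 regions above and 1 below. Over all 2182 regions 37.4% stood below and 42.2% above. Clock had 23 and 46 in WT against 22 and 46 in Ern1-LKO, and Nr1d2, a nuclear receptor that represses clock genes, had 120 and 159 against 35 and 63 with overlapping ranks.

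Of the 426 shared regions, 44 were not at a gene start, 25 of them inside genes and 19 between genes. Among these 44, 10 stood lower in both Ern1-LKO libraries, 16 stood higher and 18 overlapped, beside 24.6% lower and 26.8% higher over all 426. The strongest lay between genes at chr2:144165087-144166153, with 230 and 311 in WT against 75 and 120 in Ern1-LKO, and stood lower. Another, at chr3:79286352-79287684, had 203 and 253 in WT against 65 and 138 in Ern1-LKO, and stood higher.

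Promoters were searched for motifs and their shares are described, with no test. A RefSeq promoter (300 bases, from 250 before to 50 after the start) lay at 303 of the 426 shared regions. Both strands were searched. The ERSE was in 10 of the 303 (3.3%) and in 0.14% of all 21263 promoters. TGACGTGG was in 19 (6.3%, against 0.71%), GCCACGT in 51 (16.8%, against 2.91%), and any of these or the related ERSE-II (ATTGG, 1 base, CCACG) in 71 (23.4%, against 3.58%). TGACGTCA, the CRE, was in 2.0%, close to the 2.23% of all promoters. CACGTG, the E-box, was in 14.9%, against 7.84%. Shared promoters were richer in G and C, with a median of 70.3% against 56.3%, and its part in these shares was not tested.

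The 10 genes with an ERSE were Calr, Canx, Creld2, Dnajc3, Ero1b, Hnrnpa3, Hsp90b1, Hspa5, Pdia6 and Syvn1. Their median rank of 426 was 43.25 in WT and 45.25 in Ern1-LKO, with 1 lower, 2 higher and 7 overlapping. For TGACGTGG the median rank was 41.25 in WT and 83.0 in Ern1-LKO, with 9 lower, 1 higher and 9 overlapping. For GCCACGT it was 87.75 in WT and 112.5 in Ern1-LKO, with 24 lower, 8 higher and 19 overlapping. Promoters with none of the XBP1-type motifs (232) had 49 lower, 61 higher and 122 overlapping, and median ranks of 254.125 and 244.0. Seen from the standing, GCCACGT was in 30.8% of the 78 promoters that stood lower, 12.4% of the 153 that overlapped and 11.1% of the 72 that stood higher. The ERSE was in 1.3%, 4.6% and 2.8% of these. GCCACGT also went with standing in WT. By mean WT rank it was in 40.7% of promoters at the 106 highest regions and 14.3% at the next 106. It was in 8.2% at the following 106 and 1.4% at the 108 lowest. Regions high in WT have more room to fall, and the part of WT rank in the shares by standing was not tested.

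Among the 106 regions with the highest mean rank in WT, some were also among the 106 highest in Ern1-LKO, and 66 promoters lay at those. The ERSE was in 7 of these 66 (10.6%), TGACGTGG in 18.2% and GCCACGT in 37.9%. At the regions in the WT top alone, 15 promoters, GCCACGT was in 8 (53.3%) and the ERSE in 0. At the regions in the Ern1-LKO top alone, 17 promoters, each of the 3 motifs was in 5.9%. The 76 promoters of both WT libraries alone held GCCACGT in 10 (13.2%) and the ERSE or TGACGTGG in 0. The 1250 promoters of both WT and Ern1-LKO replicate 2 held GCCACGT in 9.6%, and the 5446 of WT replicate 2 and Ern1-LKO replicate 2 alone held it in 3.2%, near the 2.91% of all promoters. An absent match says only that these letters are not in this window.

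**Figure D5:**
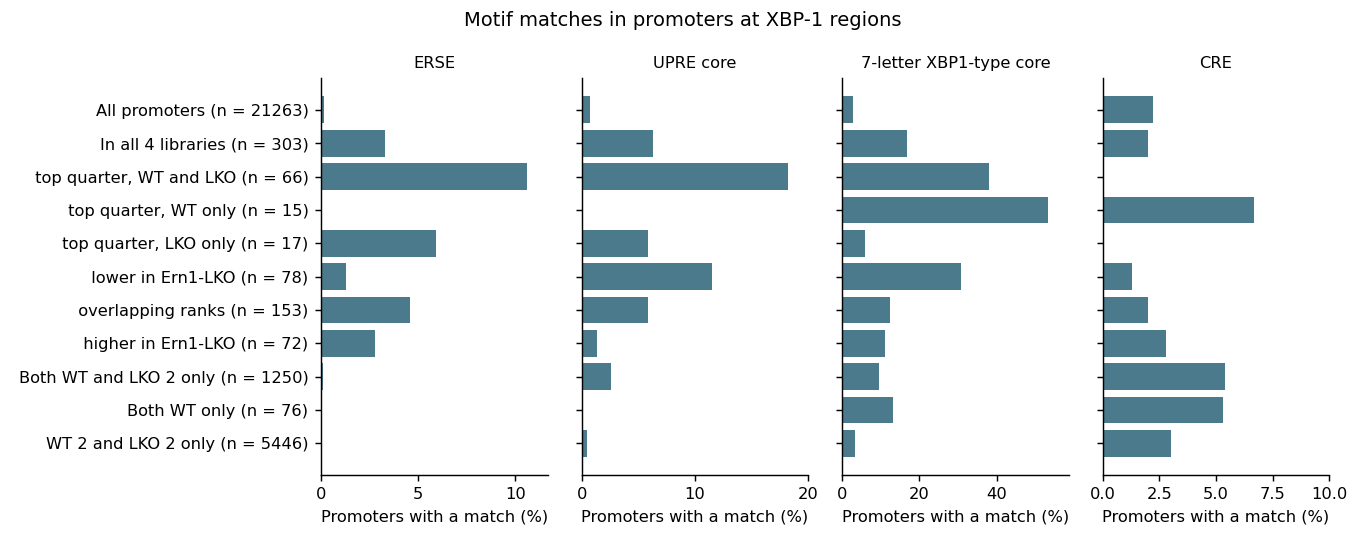
Share of RefSeq promoters with a match to 4 motifs (horizontal axes, percent, each with its own scale) for all promoters and for regions by presence and standing, with the number of promoters in brackets. The ERSE reaches 10.6% where a region is among the 106 highest of both groups, and the 7-letter core, GCCACGT, reaches 53.3% where it is among the 106 highest in WT alone.

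Summits lay close to the XBP1-type motifs in both groups, a measure added after the data were seen. For the 71 regions with any of them, the median distance from summit to the nearest match was 21.5 and 36.0 bp in WT against 39.0 and 61.0 bp in Ern1-LKO. A summit within 50 bp was found in 51 and 45 of the 71 in WT and in 41 and 31 in Ern1-LKO. Every one of the 10 ERSE promoters had a summit within 50 bp in replicate 1 of both groups, and in replicate 2 it was 8 in WT and 6 in Ern1-LKO. At Hspa5 the summits were 51 and 33 bases before the start in WT and 51 and 65 in Ern1-LKO, beside the ERSE printed above. At Ero1b and Ssr3, which stood lower, 3 of the 4 summits were before the start, and that of Ern1-LKO replicate 2 was 120 and 150 bases after it. For the 45 regions with an E-box the median distance was larger, 126.5 and 143.5 bp in WT against 218.5 and 181.5 bp in Ern1-LKO. Median peak width in the lists was 232 to 280 bp, which bounds how finely a summit can be placed.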

How the data were processed

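Per the submitters' processing notes the sequencing output was converted with bcl2fastq, checked with FastQC 0.11.3, aligned to mm10 with Bowtie2 2.2.5, and peaks were called with MACS2 2.2.1. Per the file headers the version was 2.1.1.20160309, each library was called on its own against 1 input library, at a q-value cutoff of 0.05, with 1 tag kept per position. The deposited columns used were the pileup signal at the summit, the fold enrichment ratio over the input, and the −log10 of the p-value and q-value. Per the file headers every library was smaller than the input (16513198 kept tags), so pileup was not scaled to a common depth. Total tags were 15410252 and 13581002 in WT, then 14530061 and 8142079 in Ern1-LKO. Precision is set by this depth and by 2 libraries per group.

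Peaks of the 4 lists were merged where they overlapped by 1 bp, and a region took the highest pileup among its peaks in each library. Protein-coding genes were assigned within 1 kb of a RefSeq start (GRCm38.p6), or of either end where the start was not in the promoter table. Ranks over regions present in every compared library were turned into normal scores and tested with limma 3.58.1 (R 4.3.3) without a replicate block, with Benjamini-Hochberg adjustment and a threshold of 0.05, after a check on simulated data. Single library values were tested with exact permutation. Other steps used Python 3.11.15, pandas 2.3.3, numpy 2.4.6, scipy 1.17.1 and matplotlib 3.10.9. Named genes were a list of 20 stress response genes and Brd2, the 10 highest shared regions, up to 10 per direction with the largest change of rank, the 10 highest in WT alone and in both WT with Ern1-LKO replicate 2, and up to 4 members of a gene list with the largest change. Other members of the lists served as examples, chosen after their values were seen. The members and gene lists were chosen with earlier results of these data known. The input and the libraries of the other groups were not analysed here. Alternatives were stricter peak thresholds, other overlaps, windows and ranked values, equal lists and leaving out each library.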

Additional observations from a re-analysis of the deposited data

How the results depend on the processing

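There were 94 alternatives of the main counts and library values. Of these, 62 stayed within the range set for the same result, 30 moved and 2 gained calls. A change of sign was not scored for them. The difference (Ern1-LKO minus WT) in the share of top peaks at a gene start was 4.95 percentage points with 698 peaks and -1.6 with 349. This was counted as the same. All 120 alternatives for the 20 genes with the largest changes of rank kept their direction, though several changed in size. Leaving out 1 library could not change the direction, because these genes were chosen for ranks that do not overlap between the groups. Only ranking by fold enrichment or by −log10 q could have reversed it. The count of regions in all 4 libraries was 123 with a −log10 q of at least 10, 203 with a fold enrichment of at least 5 and 133 with equal lists, and 427 to 2182 when 1 library was left out. Regions of both WT libraries alone numbered 132 with a fold enrichment of at least 5 and 240 to 9968 with 1 library left out, and regions of both Ern1-LKO libraries alone numbered 105 with equal lists and 0 to 10221 with 1 left out. Regions lower in both Ern1-LKO libraries were 31, 48 and 36 under these 3 settings and 152 to 817 with 1 library left out. Those higher were 26, 56 and 34, and 154 to 920. Secretory regions in every library were 59 to 125 with 1 left out. With equal lists 11 of 49 stood lower and 12 higher, where the main counts were 18 lower and 11 higher of 60. With 1 library left out 21 to 82 stood lower and 13 to 27 higher. Ranked by fold enrichment 5 stood higher. The equal-list and fold-enrichment counts of secretory regions were chosen after seeing the data. Counts with 1 library left out are larger because fewer lists must hold a region, and without Ern1-LKO replicate 1 the shared set was 2182. By limma, calls among shared regions went from 0 to 3 with equal lists (133 regions tested), and were 0 with a −log10 q of at least 10 (123 tested). The cause was not tested. With 1 library left out there were 0 calls.

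The groups share replicate numbers, but no label ties a number to a batch. The deviations of replicate 1 from the group means correlated at 0.28 over the 426 regions. With the replicate block limma called 1 region, Fam184a, lower (adjusted p = 0.00699), with 34 lower and 37 higher at an unadjusted p under 0.05. The lists differ in depth and length. Pileup near its ceiling limits what ranks can show at the strongest sites, most in WT replicate 2 (349 of 364 in the shared regions). At low pileups a few fragments move a region by many places.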
